A study of Macaca mulatta with 2 samples.

Results

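CITED1-expressing stromal fibroblasts were a small class of cells in the trabecular meshwork of rhesus macaques, the porous tissue through which aqueous humour drains from the eye. They were chosen by expression, from unique molecular identifiers (UMIs), which count RNA molecules. A barcode was taken when it had at least 1 UMI of CITED1 and a UMI of at least 2 of the 6 genes PI16, SFRP4, C3, SCN9A, AKAP12 and CPA4. It also had to lack C7, CDH19 and PECAM1, to hold fewer than 2 of GPHA2, HAPLN1, KRT19, CCL26 and IL33, and to hold fewer than 2 of BMP3, MGARP, WIF1 and SLC4A10. The rule found 195 of 14063 kept barcodes, namely 129 of 8633 glaucoma barcodes and 66 of 5430 normal barcodes. They are called members here.

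The study compared spontaneous primary open-angle glaucoma in monkeys with healthy controls, and each group was a single library of dissociated meshwork tissue. The labels give no number, age or sex of the animals, no eye pressure, and no strain or treatment. With 1 library a group there is no replicate, so no test between the groups was made. Diagnosis, animal and preparation cannot be told apart, and every interval in brackets is a 95% interval for counting error only. The libraries held 38765808 UMIs over 10624 glaucoma barcodes and 25042621 UMIs over 7028 normal barcodes, with medians of 2822 and 2716.5 UMIs in kept barcodes. The members held 368463 and 176080 UMIs, with medians of 2684 and 2147.5 UMIs a member. Of 17 barcode sequences found in both libraries, 0 belonged to a member.

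Stromal fibroblasts make and turn over the collagens and proteoglycans of connective tissue. CITED1 is a transcriptional co-regulator that binds CBP and p300 and has no DNA-binding domain of its own. PI16, a peptidase inhibitor, marks fibroblasts of adventitial type in many tissues. SFRP4 is a secreted Wnt antagonist, C3 the central complement component, SCN9A a voltage-gated sodium channel, AKAP12 a scaffold for protein kinase A and CPA4 a carboxypeptidase.

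The label was checked against 12 markers of stromal fibroblasts, none of which the rule used (DCN, LUM, COL1A1, COL1A2, COL3A1, COL6A1, COL6A2, COL6A3, PDGFRA, FBLN1, MFAP4 and PCOLCE). At least 3 of them had a UMI in 111 of 129 glaucoma members and in 64 of 66 normal members. A set of 14 glaucoma members went against the label. Each held a UMI of at least 2 of the 3 melanocyte markers with a named feature (PMEL, TYR and DCT), against 0 normal members. PMEL, a protein of pigment granules, had 368 UMIs over all 14, and TYR, the enzyme that starts melanin synthesis, had 61 UMIs over 13. The small proteoglycan DCN had 1 UMI over the 14, and SFRP4 and COL1A2 had 0. AKAP12 was present in 14 and SCN9A in 11, and 13 of the 14 met the rule with exactly 2 of its 6 markers. None of the 14 reached 3 stromal markers, whereas 111 of the other 115 glaucoma members did. These 14 are called melanocyte-marker barcodes below, and results are given with and without them. Without them the members numbered 115 and 66, with 318164 UMIs in the glaucoma library.

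**Figure D1:**
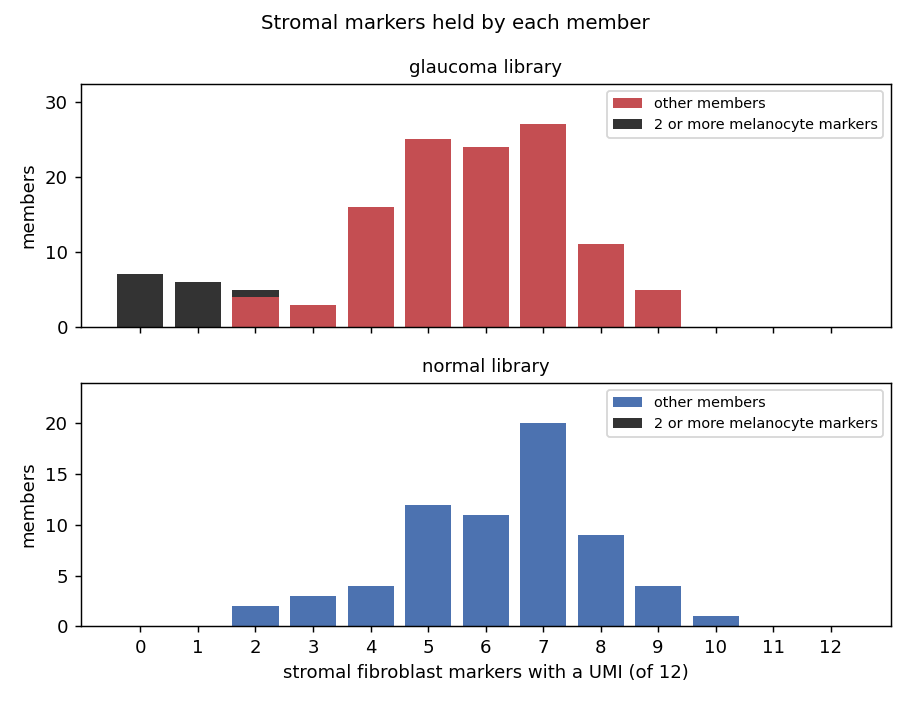
Number of members (vertical axis) by how many of 12 stromal fibroblast markers had a UMI in them (horizontal axis), in each library. The 14 dark glaucoma members with at least 2 melanocyte markers sit at 0 to 2 stromal markers, and the other members lie at 2 to 10.

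Markers of other cell types were read in the remaining 115 and 66 members. All 8 T and NK cell markers were at 0 in the glaucoma members and 7 of 8 in the normal members. At least 2 macrophage markers were found in 0.870% of glaucoma members and in 0 of 66 normal members, which at a limit of 3 counts allows a share of up to 4.55%. Vascular endothelial markers were also rare, with at least 2 in 1.74% of glaucoma and 0 of 66 normal members. Smooth muscle markers were more frequent, with at least 2 in 24.3% and 21.2% and summed levels of 1141 and 1840 CPM (UMIs of the gene per 1e+06 UMIs of the members). Markers of juxtacanalicular meshwork cells (CHI3L1, ANGPTL7, MYOC, CHAD, RSPO4 and FMOD) had a higher summed level in the glaucoma members, while the medians per member were close in value. At least 2 of the 6 had a UMI in 31.3% of glaucoma members and 13.6% of normal members, at summed levels of 9989 and 3072 CPM, with RSPO4 at 0 in both. MYOC made up most of both sums. Per member, the 6 markers together had a median of 1610 CPM in glaucoma and 1558 CPM in normal members and reached 51004 and 33763 CPM. The summed level of the 12 stromal markers was 8584 and 9064 CPM. Leaving out every member with at least 2 markers of another class left 75 of 129 glaucoma and 49 of 66 normal members. The classes counted there were vascular and lymphatic-type endothelium, macrophage, T or NK cell, melanocyte, Schwann cell, pericyte and smooth muscle.

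The genes of the rule describe how the members were chosen and support nothing further. CITED1 had a median of 4 UMIs in a glaucoma member and 2 in a normal member, up to 37 and 34. A single CITED1 UMI was the whole signal in 33 and 28 members. Without the melanocyte-marker barcodes, AKAP12 had a UMI in 97.4% of glaucoma and 100% of normal members, SFRP4 in 87.8% and 89.4%, and PI16 in 82.6% and 93.9%. SCN9A was seen in 32.2% and 53.0%, C3 in 20% and 50%, and CPA4 in 19.1% and 18.2%. The most frequent pair among glaucoma members was AKAP12 with SFRP4, held together by 85.2% and 89.4% of members. C3 and SCN9A were seldom found together in glaucoma members, at 3.48%, and were together in 27.3% of normal members.

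Immune cells, which are not known for most of these genes, gave the background of free RNA. In 710 glaucoma and 191 normal immune cells, with median depths of 3533.5 and 2895 UMIs, CITED1 had a UMI in 1.83% and 1.05%, SFRP4 in 2.68% and 1.05%, and SCN9A in 1.13% and 1.05%. PI16 was at 6.48% and 7.85%, and AKAP12 at 8.31% and 8.90%. C3 was at 7.61% and 15.2%, and macrophages can make C3 themselves. CPA4 was at 0.423% in the glaucoma immune cells and had 0 UMIs in the normal ones. The shares in members were above these, as a rule that asks for 2 of the 6 genes would make them.

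The number of rule markers a member held, which the rule itself bounds from below, overlapped between the libraries. In the glaucoma library 39, 35, 40, 14 and 1 members held 2, 3, 4, 5 and 6 of the 6 markers, and of the 39 with exactly 2, 26 remained without the melanocyte-marker barcodes. In the normal library the numbers were 5, 12, 27, 19 and 3. Most barcodes with CITED1 and at least 2 of the 6 markers, 581 glaucoma and 452 normal, were taken out by the exclusions. Of these, 350 and 287 failed on the GPHA2 set and 128 and 176 on C7, and a barcode could fail on more than 1. Also outside the rule lay 26 glaucoma and 25 normal barcodes with CITED1 and 1 marker, of which 10 and 3 held at least 2 melanocyte markers. A further 285 and 306 barcodes met every other condition but had no CITED1 UMI. Of those, 86.3% and 80.4% held at least 3 stromal markers. Their PI16 level was 2518 and 1782 CPM, against 7062 and 4810 CPM in members.

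PTGDS, APOD, A2M and GSN were among the genes with the highest levels in members. The values here are CPM over the 115 glaucoma members and then the 66 normal members, as UMIs from transcript ends that are not scaled by gene length. PTGDS, the lipocalin-type prostaglandin D synthase, led the glaucoma members at 41193 CPM and stood at 13352 CPM in the normal members. APOD, a lipocalin that carries small lipids, had 14219 and 20780 CPM. A2M, a broad protease inhibitor, had 13506 and 16504 CPM, and GSN, the actin-severing protein gelsolin, had 10275 and 10632 CPM. IGFBP5 and IGFBP6, binding proteins of insulin-like growth factors, had 5607 and 12869 CPM and 8332 and 6622 CPM. MGP, an inhibitor of calcification, had 8939 and 4038 CPM. MYOC, the secreted meshwork protein myocilin, had 8376 and 2908 CPM. CLU, the extracellular chaperone clusterin, had 4432 and 3606 CPM. S100A6, EEF1A1 and FTH1, which are abundant in many cells, completed the leading genes outside the rule, with APOE only when the melanocyte-marker barcodes were counted.

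APOE encodes a lipid carrier. Its level of 11518 CPM over all 129 glaucoma members came from 4244 UMIs, of which 4131 lay in the 14 melanocyte-marker barcodes. The other 115 had 355 CPM, and 1 barcode held 61.9% of those UMIs. The normal members had 97 CPM from 17 UMIs.

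Individual members were compared after each was thinned to 2000 UMIs, which left 70 glaucoma and 36 normal members. PTGDS had a median of 64.5 UMIs in glaucoma members, from 0 to 343, and 22 in normal members, from 0 to 122. The ranges overlapped, and the highest normal member stood below the highest glaucoma members. IGFBP5 had a median of 5 UMIs (0 to 41) in glaucoma and 19 (4 to 80) in normal members. Every one of the 36 normal members held IGFBP5, against 57 of 70 glaucoma members. APOD had medians of 21 (0 to 102) and 34.5 (0 to 183). MYOC had medians of 5 (0 to 100) and 2.5 (0 to 34), with a UMI in 53 of 70 glaucoma and 25 of 36 normal members. Its 75th percentiles were 17.25 and 9.25 UMIs. CHI3L1, a secreted chitinase-like protein, had a UMI in 22 of 70 glaucoma members, up to 41 UMIs, and in 3 of 36 normal members with at most 1 UMI. RBP4, the retinol carrier, was spread more evenly, with a UMI in 35 of 70 and 2 of 36 members and at most 7 and 2 UMIs.

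**Figure D2:**
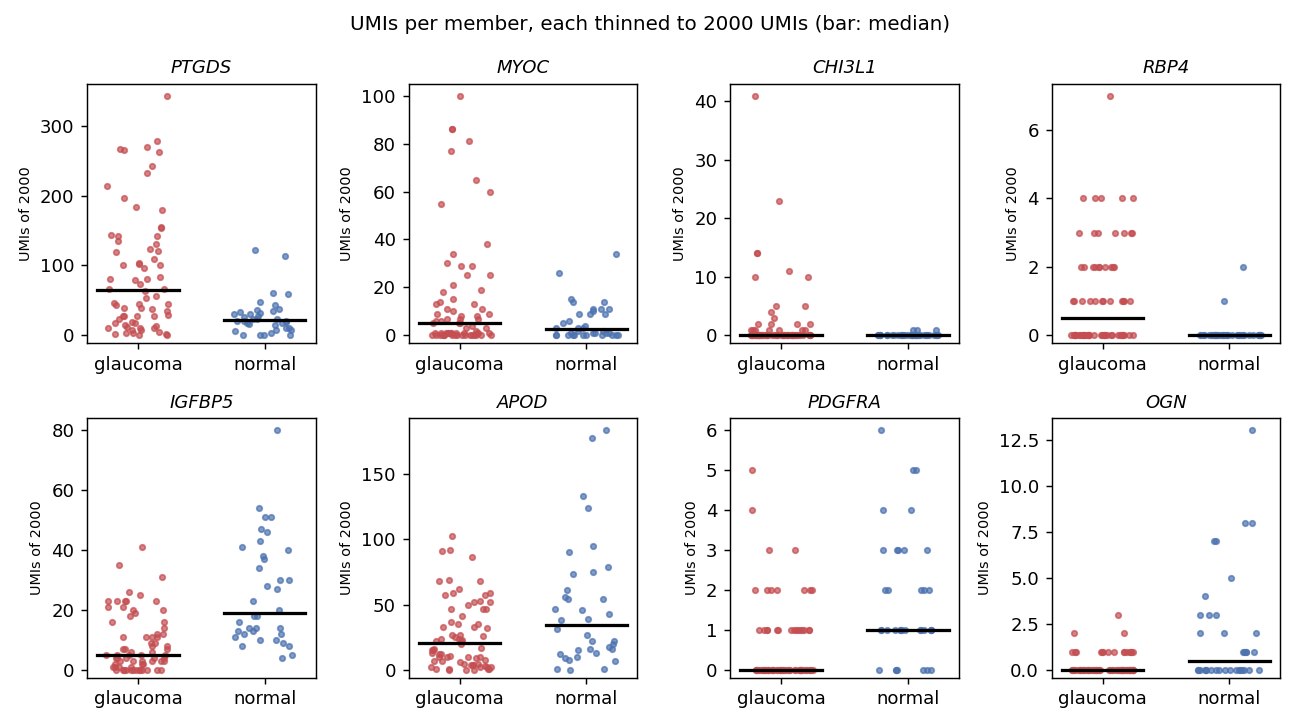
UMIs of 8 genes in each member after thinning to 2000 UMIs (vertical axis), for 70 glaucoma and 36 normal members without melanocyte-marker barcodes, with 1 point a member and a bar at the median. PTGDS points reach 343 in glaucoma and 122 in normal members, while IGFBP5 medians are 5 and 19.

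The glaucoma members were uneven in their meshwork genes. The 26 that held exactly 2 rule markers had a MYOC level of 20749 CPM, against 3110 CPM in the 89 with at least 3. CHI3L1 was at 4190 CPM in the 26 and 161 CPM in the 89, and CYTL1, a small secreted protein, at 2811 and 76.2 CPM. IGFBP5 had the reverse order, with 1632 and 7299 CPM, as did APOD, with 7832 and 16938 CPM. PTGDS was high in both, at 52730 and 36282 CPM, and OGN was at 179 and 206 CPM. The normal library had only 5 members with exactly 2 markers. In those MYOC was at 6111 CPM, and in the other 61 at 2487 CPM.

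Members made up 1.49% [1.25, 1.77] of the kept glaucoma barcodes and 1.22% [0.941, 1.54] of the kept normal barcodes. The log2 ratio of these shares was 0.30 [-0.14, 0.75], an interval that includes equal shares. Without the melanocyte-marker barcodes the glaucoma share was 1.33% [1.10, 1.60] and the log2 ratio 0.13 [-0.32, 0.59]. With at least 3 rule markers required, the log2 ratio was -0.11 [-0.59, 0.39]. No difference in share was detectable under these rules. These shares hold for the rule with its exclusions. Before them, 581 of 8633 glaucoma and 452 of 5430 normal kept barcodes had CITED1 and at least 2 of the 6 markers. KRT19, a keratin, takes its name here from a reference table and not from the deposited features. Leaving it out of the rule gave 233 and 116 members and a log2 ratio of 0.34 [0.01, 0.67].

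Within members, glaucoma and normal were compared gene by gene. A gene is called higher or lower when its CPM differed at least 2-fold and the interval of the ratio excluded 1, among genes with at least 100 UMIs over the members of both libraries. Of 861 genes, 63 (7.32%) were called higher and 79 (9.18%) lower in the glaucoma members. Without the melanocyte-marker barcodes 48 (6.08%) of 790 were higher and 58 (7.34%) lower, and 95 genes were called with and without them, 38 higher and 57 lower. The median log2 ratio over all tested genes was 0.12, and 0.13 without those barcodes. Centring on that median gave 42 higher and 99 lower. A total without rule, mitochondrial, ribosomal and haemoglobin genes gave 80 and 62. In a library, fewer cells of a kind among the members and less RNA per cell cannot be told apart.

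The highest ratios over all members were those of genes carried by the melanocyte-marker barcodes. PMEL had 374 UMIs in glaucoma and 0 in normal members, at least 59.6-fold higher against the floor of 3 UMIs over the normal members. SCGB3A2, a secretoglobin, had 365 UMIs against 0, at least 58.1-fold higher, and 361 of its UMIs lay in 5 melanocyte-marker barcodes. SPP1, the matricellular protein osteopontin, had a log2 ratio of 4.31 over all members and 0.60 [-0.18, 1.44] without those 14. CHCHD6, a mitochondrial cristae protein, went from 4.74 to 0.95 [-1.44, 4.26]. EDNRB, an endothelin receptor, went from 3.56 to -1.85 [-5.32, 0.95]. The calls of these genes thus rested on the 14 barcodes, and the comparisons that follow leave those barcodes out unless stated.

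CHI3L1 had 1364 CPM in 115 glaucoma members and 34.1 CPM in 66 normal members, a log2 ratio of 5.32 [4.19, 6.78]. CYTL1 had 893 and 22.7 CPM, a log2 ratio of 5.30 [3.92, 7.18]. These came from few members, 30 glaucoma members for CHI3L1, and 1 barcode held 30.2% of the CHI3L1 UMIs and 43.0% of the CYTL1 UMIs. Among members with at least 3 rule markers the log2 ratios were 2.62 and 1.95, and with KRT19 left out of the rule, which ended both calls, 0.24 and 0.04. CRYAB, a small heat shock protein, had 361 and 39.8 CPM, a log2 ratio of 3.18 [2.10, 4.53].

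RBP4 had 446 CPM in glaucoma and 56.8 CPM in normal members, a log2 ratio of 2.97 [2.05, 4.07]. It was found in 64 glaucoma and 6 normal members, and no barcode held over 4.90% of its glaucoma UMIs. LRRC24, a leucine-rich repeat protein, had 421 and 85.2 CPM, a log2 ratio of 2.31 [1.53, 3.18]. GAPDH, a glycolytic enzyme, had 619 and 119 CPM, a log2 ratio of 2.38 [1.72, 3.10]. Reads of GAPDH can be split among near-identical copies, so its level is uncertain. RBP4, LRRC24, GAPDH and CRYAB were called higher under every alternative that gave them a value. None of those alternatives addressed free RNA, and its part in these ratios was not tested. CRYAB was higher in BMP3 meshwork cells, a group set beside the members below, than in members. That group made up 13.1% of kept glaucoma and 2.71% of kept normal barcodes.

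PTGDS and MYOC, both abundant in members, were called higher. PTGDS was 1.63 [1.56, 1.69] higher on the log2 scale and MYOC 1.53 [1.39, 1.67]. Both also had a background in immune cells that differed between libraries, 918 and 157 CPM for PTGDS and 1029 and 157 CPM for MYOC. The part of this background in the result was not tested. Over all members the log2 ratio of MYOC was 1.32, and it was 0.30 with at least 3 rule markers, 0.82 with each cell given the same weight and 0.35 without KRT19 in the rule. That of PTGDS was 1.42 over all members, 1.36 with at least 3 rule markers and 0.72 without KRT19 in the rule. The summed juxtacanalicular markers, 9989 and 3072 CPM, were mostly MYOC itself in both libraries. That sum therefore had to move with MYOC and adds nothing separate to it.

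The genes named as lowest in glaucoma members were changed little by leaving out the 14 barcodes. OGN, a small leucine-rich proteoglycan of connective tissue, had 198 CPM in glaucoma and 954 CPM in normal members, a log2 ratio of -2.27 [-2.71, -1.84]. It was found in 36 of the 115 glaucoma and 32 of the 66 normal members. EPAS1, a hypoxia-inducible transcription factor, had 88.0 and 449 CPM, a log2 ratio of -2.35 [-3.03, -1.71], with 30.4% of the normal UMIs in 1 barcode. PDGFRA, the platelet-derived growth factor receptor of fibroblasts, had 361 and 1028 CPM, a log2 ratio of -1.51 [-1.86, -1.16]. After thinning it had a UMI in 26 of 70 glaucoma and 29 of 36 normal members.

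The other genes of that set had log2 ratios between -1.83 and -1.51. They were TRIM22, an interferon-inducible ubiquitin ligase family member (-1.83), PDE5A, a phosphodiesterase that degrades cyclic GMP (-1.81), and LTBP1, which binds latent TGF-beta (-1.77). UACA stood at -1.75, AKAP9, a kinase-anchoring protein of the centrosome and Golgi, at -1.73, and the transcription factor FOXO3 at -1.69. CRISPLD2, a secreted protein, was at -1.62, and ANGPT1, the TIE2 ligand angiopoietin 1, and CAPN6, a calpain without protease activity, were both at -1.51. All 12 lowest genes except UACA, whose call was lost after thinning, were called lower under every alternative that gave them a value. IGFBP5 had a log2 ratio of -1.20 [-1.29, -1.11], and its ratio over all members, -1.41, was -0.97 with at least 3 rule markers.

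**Figure D3:**
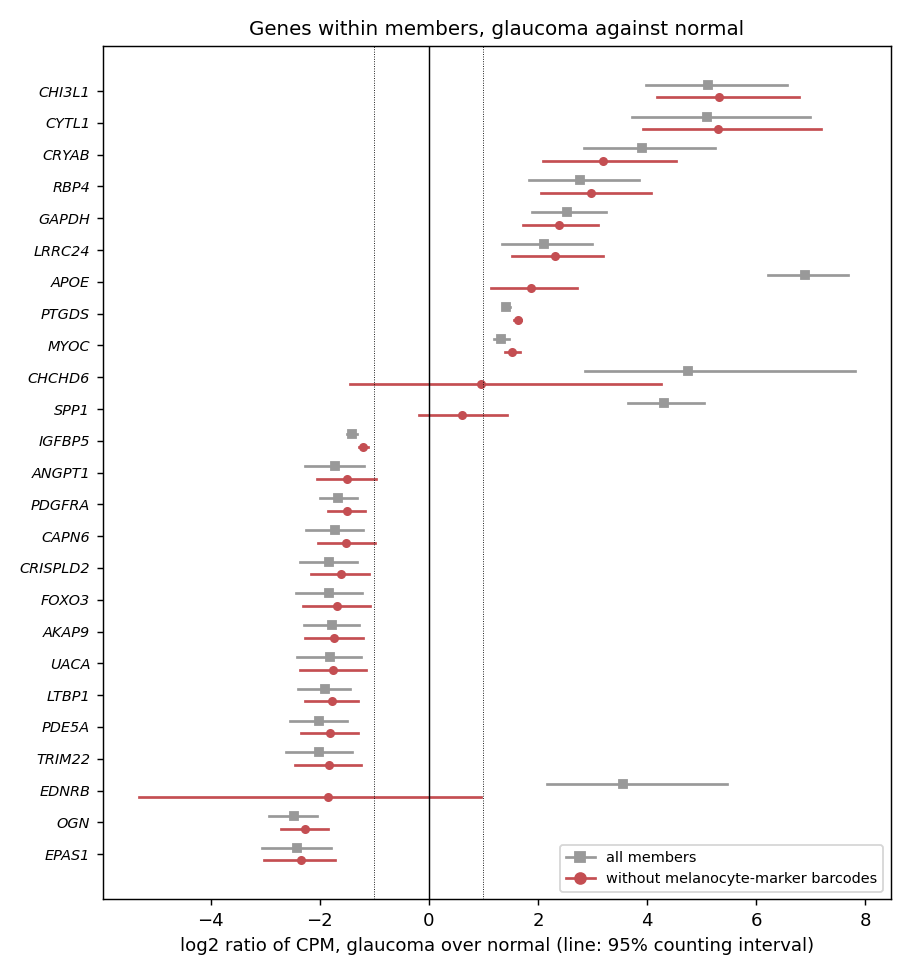
Log2 ratio of CPM in glaucoma over normal members (horizontal axis) for named genes, with 95% counting intervals, over all 129 and 66 members (grey squares) and over 115 and 66 without melanocyte-marker barcodes (red circles). APOE falls from 6.90 to 1.88 and EDNRB from 3.56 to -1.85, while OGN, EPAS1 and PDGFRA stay below -1.

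Gene groups were read from lists, here also without the melanocyte-marker barcodes, with their counts beside the 6.08% and 7.34% of all genes. Among the 11 protease and inhibitor genes tested, 1 was higher and 1 lower, and the median of their log2 ratios was 0.55. TIMP3, a matrix-bound metalloproteinase inhibitor, was lower at -1.24 [-1.58, -0.90], from 402 and 948 CPM, and over all members its ratio of -1.36 was -0.73 without KRT19 in the rule. TIMP1, a soluble inhibitor of the same family, was higher at 1.15. SERPINF1, the antiangiogenic serpin PEDF, stood at 0.85 and A2M at -0.29. Of 10 proteoglycan and glycoprotein genes 2 were higher, MGP at 1.15 [1.03, 1.27] and BGN (biglycan) at 1.17 [0.62, 1.74], and 3 lower, OGN, the laminin chain LAMA4 at -1.13 and the basement membrane linker NID1 at -1.16, with a median of -0.43. MGP, BGN, TIMP1 and FOXC1 were between the limits over all members, at 0.94, 0.99, 0.95 and 0.97. DCN stood at 0.17 [0.02, 0.32].

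Of 5 collagen genes 0 were called in either direction, with a median of -0.21. COL1A2, a chain of type I collagen, had 497 and 858 CPM, a log2 ratio of -0.79, and COL6A2 of type VI collagen 1144 and 1056 CPM, 0.12. Of 5 elastic fibre genes 1 was lower, LTBP1, with a median of -0.49. FBLN1 stood at -0.49 and EFEMP2 at 0.09. Of 11 contractile filament genes 2 were lower, with a median of -0.68. They were TPM1, a tropomyosin, at -1.05 and MYLK, the myosin light chain kinase, at -1.22 [-1.65, -0.79], but single barcodes held 48.2% of its glaucoma and 57.0% of its normal UMIs, and with at least 3 rule markers its ratio over all members was 0.76. Without the 1 normal barcode the MYLK ratio was -0.07 [-0.61, 0.48], and without the 1 glaucoma barcode it was -2.13 [-2.68, -1.61]. Without both it was -0.99 [-1.62, -0.35], just short of 2-fold. The MYLK call thus depended on which barcodes were left out. The summed level of smooth muscle markers was 1141 CPM in glaucoma and 1840 CPM in normal members, with medians per member of 353 and 0 CPM. Without members that held 2 or more markers of another class, smooth muscle among them, the MYLK ratio was 0.40 [-1.01, 1.95]. The part of smooth muscle markers alone in the result was not tested.

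In the insulin-like growth factor axis, IGFBP2 was higher and IGFBP5 lower among 6 genes, with a median of -0.30. IGFBP2 had 739 and 176 CPM, a log2 ratio of 2.07 [1.52, 2.66], with 32.8% of the glaucoma UMIs in 1 barcode. Over all members its ratio was 1.89, against 0.93 with at least 3 rule markers and 0.63 without KRT19 in the rule. Of 5 TGF-beta and BMP genes 1 was higher and 1 lower, with a median of -0.21. ID1, a BMP target and inhibitor of helix-loop-helix factors, was at 2.26 [1.40, 3.26], and FSTL1, a secreted BMP modulator, at -1.11 [-1.58, -0.64]. Over all members ID1 was at 2.08, and 0.65 without KRT19 in the rule. Among complement genes, CFB, a protease of the alternative pathway, stood at 0.37 and SERPING1, the C1 inhibitor, at -0.24.

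Of 8 heat shock genes 1 was higher, CRYAB, with a median of 0.10. HSPA5, HSP90AB1 and HSPA8 had ratios of -0.32, -0.01 and 0.23. Of 5 lipid handling genes 1 was higher, APOE, with a median of -0.55. Single barcodes held 61.9% of the glaucoma and 52.9% of the normal APOE UMIs outside the melanocyte-marker barcodes. Without the 1 glaucoma barcode the APOE ratio was 0.51 [-0.33, 1.42], and without the 1 normal barcode it was 2.95 [1.92, 4.19]. Without both it was 1.58 [0.47, 2.88], so the APOE call depended on which barcodes were left out. LRP1, a large endocytic receptor, stood at -0.81. Of 5 mesenchymal transcription factors 1 was higher, FOXC1, a forkhead factor of anterior segment development, at 1.18 [0.69, 1.70], from 553 and 244 CPM. TCF4, a helix-loop-helix factor, stood at -0.74. Of 3 hypoxia and glycolysis genes 2 were higher, GAPDH and LDHA, the latter at 1.26 [0.82, 1.72], and ALDOA stood at 0.30. In the list of adventitial genes that accompany PI16, PLA2G2A, a secreted phospholipase, was higher at 1.24 [0.65, 1.88] and OGN was lower. Over all members PLA2G2A was at 1.03, at 0.47 with each cell given the same weight and at -0.84 without members that held 2 or more markers of another class. The lists of cell cycle, chemokine and interferon genes held 0 genes with enough UMIs.

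The members were set beside 3 like groups of cells of the same libraries. These were C7 fibroblasts (112 glaucoma and 207 normal cells), GPHA2 fibroblasts (700 and 783) and BMP3 meshwork cells (1133 and 147), each defined by its own markers and without CITED1. Since all were chosen by expression, these are descriptions. A gene is called when it passed the same fold and interval in the same direction in both libraries, among genes with at least 50 UMIs in each library. The values below leave out the melanocyte-marker barcodes unless stated.

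C7 fibroblasts gave the fewest calls, and they also held the fewest UMIs in each library. Against them 17 (1.09%) of 1564 genes were higher in members and 28 (1.79%) lower, and over all members 18 (1.1%) and 27 (1.65%) of 1632. PROK2, the secreted peptide prokineticin 2, was at 311 CPM in glaucoma members against 8.07 CPM in glaucoma C7 fibroblasts, and at 227 against 32.5 CPM in the normal library. The log2 ratios were 5.27 [3.38, 8.33] and 2.81 [1.87, 3.83]. IGF1, the growth factor, had 346 against 68.6 CPM and 511 against 112 CPM. CYP26A1, which degrades retinoic acid, had 393 against 129 and 772 against 295 CPM. CLU had 4432 against 1593 and 3606 against 1202 CPM. LIMCH1, a regulator of non-muscle myosin, SLC10A4 and the phosphatase PTP4A1 were also higher, with log2 ratios between 1.64 and 2.54. MGLL, the monoglyceride lipase, was higher by 1.46 and 1.42 over all members.

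The genes lower than in C7 fibroblasts were led by CFD, complement factor D, an adipsin. It had 75.4 CPM in glaucoma members against 4143 CPM, and 17.0 against 1035 CPM in the normal library, log2 ratios of -5.78 [-6.43, -5.20] and -5.92 [-8.21, -4.37]. PTN, the growth factor pleiotrophin, had 53.4 against 415 and 102 against 457 CPM. ITIH2 and ITIH5, which stabilise hyaluronan, VMO1, the lipid transporter ABCA8, the matricellular THBS4 and the phosphatase DUSP6 were lower, with log2 ratios between -3.50 and -1.52. In the lipid handling list 4 of 6 tested genes were lower, against 1.79% of all genes. They were APOD (-1.44 and -1.20), APOE (-2.67 and -3.76), ABCA8 and ABCA6 (-1.95 and -1.43). MGP (-1.44 and -1.90) and OGN (-2.22 and -1.21) were lower too.

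Against GPHA2 fibroblasts 136 (2.38%) of 5703 genes were higher in members and 98 (1.72%) lower, and over all members 113 (1.97%) and 107 (1.86%) of 5750. LRRC24 had 421 against 64.9 CPM and 85.2 against 18.8 CPM, log2 ratios of 2.70 [2.36, 3.03] and 2.18 [1.28, 2.99]. FAM13C (2.21 and 2.12), NPNT, an integrin ligand (2.20 and 3.38), ATP13A5, a transport ATPase (2.07 and 2.93), and MGLL (1.39 and 2.98) were higher. SPP1 was at 1.47 and 3.42, and SCN7A, a sodium channel, was at 3.98 and 2.77 over all members. Among list genes, A2M, IGFBP5 (1.42 and 1.79), IGF1 (1.25 and 1.48), PDGFRA (1.03 and 2.20), TGFBR3 (1.15 and 1.41), PLAT (1.76 and 2.89) and the Wnt ligand WNT5A (1.07 and 2.12) were higher in members. In the TGF-beta and BMP list TGFBR3 was the 1 of 18 tested genes that was higher and 5 were lower, with medians of -0.72 in the glaucoma and -0.60 in the normal library. The 5 were TGFB2 (-1.18 and -1.56), TGFBI (-1.24 and -2.26) and the BMP targets ID1 (-1.20 and -3.04), ID2 (-1.74 and -2.04) and ID4 (-1.62 and -2.54). In the Wnt list WNT5A was the 1 of 16 that was higher and 4 were lower, with medians of -0.56 and 0.14. The lower genes were 4 antagonists of the pathway, SFRP1 (-2.45 and -3.44), SFRP2 (-2.61 and -1.12), FRZB (-1.67 and -1.24) and WIF1, which the rule used. Of 9 genes of the IGF axis 2 were higher and 1 lower, IGFBP2 (-1.44 and -2.90), and of 20 proteases and inhibitors 3 were higher and 3 lower.

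Several genes of GPHA2 fibroblasts were at 0 UMIs in the members of both libraries. MMP3, the metalloproteinase stromelysin 1, had 74.2 and 97.5 CPM in GPHA2 fibroblasts, at least 7.87-fold and 5.72-fold above the floor of 3 UMIs over the members. TRH, CHRM1, KRT14, IFITM10, MYL2 and GPR83 were at 0 as well, at bounds of 1.30-fold to 2.85-fold. CILP, a cartilage matrix protein, had log2 ratios of -3.73 and -4.00. The list counts that follow stand beside 1.72% of all 5703 genes lower and 2.38% higher. In the immediate early list 4 of 18 tested genes were lower and 0 higher, ATF3 (-1.02 and -1.34), FOSB (-2.08 and -1.33), IER3 (-1.65 and -1.87) and MYC (-1.79 and -2.29). In the proteoglycan and glycoprotein list 8 of 22 were lower and 1 higher, among them BGN (-1.30 and -2.74), MGP (-1.63 and -2.72) and VCAN, the large proteoglycan versican (-1.61 and -3.38). In the tendon, keratocyte and sclera list 5 of 12 were lower, among them TNMD, which had 0 and 11.4 CPM in members against 153 and 54.0 CPM, and MKX (-1.91 and -1.49).

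BMP3 meshwork cells gave the most calls, although the number of cells and of genes tested differs between the groups. Against them 176 (5.36%) of 3284 genes were higher in members and 140 (4.26%) lower, and over all members 161 (4.9%) and 139 (4.23%). IGFBP5 had 5607 against 83.4 CPM and 12869 against 359 CPM, log2 ratios of 6.07 [5.93, 6.21] and 5.16 [4.99, 5.34]. TNFSF10, the apoptosis ligand TRAIL (4.96 and 6.66), ADAMTSL1 (5.69 and 4.10), SULF1, a heparan sulfatase (4.03 and 3.80), CTTNBP2 (3.85 and 4.38), CAPN6 (3.67 and 5.33) and VLDLR, a lipoprotein receptor (3.33 and 4.36), were higher. Of the complement genes C1S (1.49 and 1.66) and CLU (1.86 and 1.02) were higher, as was C3, which the rule used. MMP2, the gelatinase of fibroblasts, had 1892 against 196 and 1880 against 310 CPM.

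Lower than in BMP3 meshwork cells was CXCL14, a chemokine, with 198 against 2464 CPM and 17.0 against 3308 CPM. GPR83 was at 0 UMIs in members against 114 and 152 CPM, at least 12.0-fold and 8.93-fold lower. STC2 and CBLN4 were at 0 as well, and GRB14, CDH2, THBS1 and ECE2 had at most 3 UMIs in glaucoma and 0 in normal members. In the Wnt list 6 of 11 tested genes were lower, against 4.26% of all genes. They were the R-spondins RSPO2 (-3.03 and -5.09) and RSPO3 (-2.98 and -4.74), the antagonists SFRP1 (-3.63 and -4.25) and FRZB (-2.31 and -2.59), the receptor ROR1 (-1.81 and -1.96) and WIF1, which the rule used. DKK3 was higher at 2.17 and 1.82, and SFRP4, also of the rule, was higher. MGP had 8939 against 49864 and 4038 against 38230 CPM, and MYOC 8376 against 21377 and 2908 against 26846 CPM. CRYAB (-3.38 and -6.17) and TAGLN, a smooth muscle actin-binding protein (-3.26 and -2.14), were lower.

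**Figure D4:**
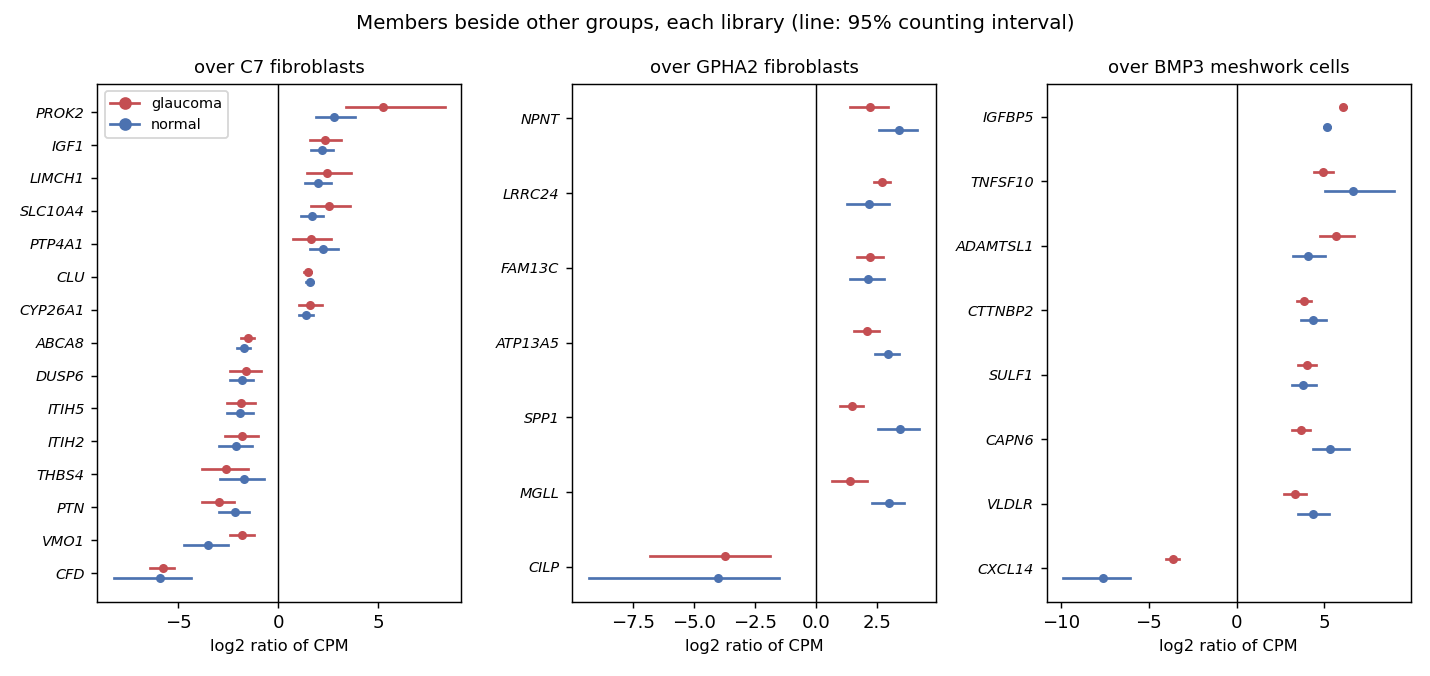
Log2 ratio of CPM in members over each of 3 other groups (horizontal axes), in the glaucoma and the normal library without melanocyte-marker barcodes, with 95% counting intervals. Genes at 0 UMIs in members are not drawn, and neither are MGLL beside C7 fibroblasts and SCN7A beside GPHA2 fibroblasts, which had too few UMIs without those barcodes. Each gene lies on the same side of 0 in both libraries, with CFD at -5.78 and -5.92 beside C7 fibroblasts.

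CITED1 itself was compared with the pattern of other genes over 7 cell groups in both libraries, 14 points that share libraries. Since CITED1 chose the members, r mainly sets the 2 member points against the 12 others and is a description only. The 5 genes with the highest Pearson r on the log2 scale of CPM with 10 added were NTS, the neuropeptide neurotensin (0.89), PSMA1, a proteasome subunit (0.83), SARS, a transfer RNA synthetase (0.77), TUBGCP2, a component of the gamma-tubulin complex (0.76), and PROK2 (0.75). NTS had 129 CPM in glaucoma and 56.8 CPM in normal members and at most 10.0 CPM in each other group. PROK2 had 311 and 227 CPM, and at most 84.3 CPM in each other group. The other 3 were present in all groups at nearer levels. PSMA1 had 211 and 199 CPM in members against 120 to 157 CPM in the other groups. SARS had 123 and 136 against 56.6 to 88.4 CPM, and TUBGCP2 145 and 96.5 against 67.9 to 91.8 CPM.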

How the data were processed

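Single-cell RNA was counted in 1 glaucoma and 1 normal library of macaque trabecular meshwork. The deposited values were counts (UMIs for each feature and barcode, not normalized). The authors used Cell Ranger, given as version 4.0 with Seurat 3.0 per the submitters' processing notes and as 6.0.0 per the file headers. The aligner settings, the annotation and the build are not given in the sources used here. Per the labels' protocols both tissues were digested in 5 mg collagenase at 37 °C for 20 min, filtered at 70 µm and loaded for 10000 cells, with 12 cycles of amplification.

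Of 24037 features, 15580 had a symbol in the files and 873 took one from a reference table of gene names. A further 109 did not because the symbol was in use, and 7475 had none. Of 591 list and marker genes 46 had no named feature. Barcodes with at least 500 genes and under 20% mitochondrial UMIs were kept. Doublets were not removed in the main values, since Scrublet (run in scanpy 1.11.5) called 3.43% and 0.829% where loading predicts 6.91% and 4.34%. Their removal was an alternative.

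UMIs were summed over members for each library and given as CPM with exact Poisson intervals. Shares have exact Clopper-Pearson intervals and ratios exact conditional binomial intervals, all at 95%. With 1 library a group, counting error is the only error the files allow. Python 3.11.15, numpy 2.4.6, scipy 1.17.1 and pandas 2.3.3 were used with seed 1. The ratio step was tested on simulated independent Poisson counts, the model its intervals assume. That test does not cover UMIs gathered in single barcodes, as seen for some genes here.

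The members, lists and tests were chosen with earlier results of these data known. The genes named were those of the rule, the 15 highest in members (ribosomal and mitochondrial genes left out), the 12 highest and 12 lowest called ratios, the 8 highest and 8 lowest beside each other group, up to 4 of each list and the 5 most like CITED1. TIMP1, TPM1, LAMA4, NID1 and the list genes beside other groups were named after their values were seen. A few genes that the rule for names takes are not reported here. The alternatives changed the barcode filter, doublets, the rule, the UMI minimum, depth, cell weights and scaling. Leaving out the melanocyte-marker barcodes, leaving KRT19 out of the rule and leaving out single barcodes for APOE and MYLK were chosen after seeing the data.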

Additional observations from a re-analysis of the deposited data

Results flagged for a closer look

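Barcodes outside the filter on genes and mitochondrial UMIs entered no comparison. Of 1991 such glaucoma barcodes, 12 (0.603% [0.312, 1.05]) met the marker rule of the CITED1 fibroblasts, and of 1598 such normal barcodes 3 did (0.188% [0.0387, 0.548]). The share was higher in the glaucoma library, and the intervals overlap.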

How the results depend on the processing

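No paired analysis was possible because each group was 1 library with no replicate number, and for the same reason no replicate could be left out. The share of members kept an interval that included equal shares in all but 2 alternatives, with log2 ratios from -0.11 to 0.32 in the others; every deposited barcode gave 0.43 [0.01, 0.87] and KRT19 left out of the rule 0.34 [0.01, 0.67]. Genes called higher in glaucoma (63) numbered 33 without members holding 2 or more markers of another class, 31 after thinning to 2000 UMIs and 224 with at least 20 UMIs in place of 100. Genes called lower (79) numbered 44 with at least 3 rule markers, 26 without members holding markers of another class, 124 with KRT19 left out of the rule, 18 after thinning and 586 with at least 20 UMIs. Beside C7 fibroblasts the 18 higher genes became 6 after thinning, and the 27 lower genes 15 with at least 1000 genes a barcode, 44 with KRT19 left out and 9 after thinning. Beside GPHA2 fibroblasts the 113 higher genes became 212 with at least 3 rule markers and 38 after thinning, and the 107 lower genes 61 after thinning and 171 with each cell given the same weight. Beside BMP3 meshwork cells the 161 higher and 139 lower genes became 46 and 62 after thinning. Thinning leaves fewer UMIs and the lower UMI minimum tests more genes by construction; the cause of the other changes was not tested. Lists with a median above 0 numbered 2, but 1 with at least 1000 genes, with every barcode, after thinning and after centring, 4 with KRT19 left out and 5 with at least 20 UMIs. Direction reversed for EDNRB (-1.55 with at least 3 rule markers, -2.19 without members holding markers of another class, -1.85 without melanocyte-marker barcodes), MYLK (0.76 with at least 3 rule markers, 0.40 without members holding markers of another class) and PLA2G2A (-0.84 without members holding markers of another class). Of 50 named genes called with a finite ratio, 21 kept their call under every alternative; KRT19 left out of the rule ended the call of 18. At these depths a gene with under 3 UMIs in members, 9.43 CPM in glaucoma without melanocyte-marker barcodes and 17.0 CPM in normal members, cannot be told from absence.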
